A study of Mus musculus with 9 samples.

Results

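The genes described here are 10 transcriptional targets of p53: Mdm2, Ccng1, Btg2, Sesn2, Bax, Pmaip1, Aen, Trp53inp1, Zmat3 and Polk. Cdkn1a, another target, was set apart and is given only for reference. The 10 genes were chosen from known p53 targets with the differences between STAM and Normal livers already measured on these same arrays, so those differences, and the counts of them past a threshold, are given as a description and test nothing about these genes. They were read by 13 of the 55681 distinct probes, because Trp53inp1, Aen and Polk have a pair of probes each, and all 13 probes passed the filter on dim probes. The main probe of a gene is its brightest one.

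Total RNA from whole liver was hybridised to one-colour arrays, 1 array per mouse and 3 arrays per group. All mice were male and aged 20 weeks. STAM mice, made from C57B/6 J mice, received low-dose streptozotocin just after birth, which damages pancreatic beta cells, and a high-fat diet after weaning, and they develop diabetes, steatohepatitis and liver tumours. STAM-NON mice had no insulin, STAM-INS mice were injected subcutaneously with the insulin analogue glargine, and Normal mice had neither streptozotocin nor the diet. STAM mice thus differed from Normal mice in both the chemical and the diet, and the labels do not say whether a liver piece held tumour.

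p53 is a transcription factor that is held low by Mdm2 and accumulates when DNA is damaged or growth signals are abnormal. It binds DNA as a tetramer at pairs of a short half-site and switches on genes that stop the cell cycle, repair DNA, limit oxidative damage or trigger apoptosis. Its own negative regulator Mdm2 is among the targets, which closes a feedback loop. In liver, p53 restrains the division of damaged hepatocytes. Several of its targets also answer to other factors. Sesn2 and Pmaip1 can be induced by Atf4 in the response to amino acid shortage and stress of the endoplasmic reticulum, and Btg2 behaves as an immediate-early gene in many cells.

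RefSeq promoters on the build GRCm38.p6, from 250 bases before to 50 bases after a start of transcription, are shown for 5 of the genes because p53 reaches its targets through the half-site, which here is in capitals. The half-site is 10 bases long, reads the same on both strands, and was searched by exact match to its consensus. Mdm2 lies at chr10:117710709-117711008 on the minus strand, Ccng1 at chr11:40755237-40755536 on the minus strand, Bax at chr7:45466849-45467148 on the minus strand, Aen at chr7:78895808-78896107 on the plus strand and Btg2 at chr1:134079106-134079405 on the minus strand. Each is written 5′ to 3′ along its gene.
Mdm2: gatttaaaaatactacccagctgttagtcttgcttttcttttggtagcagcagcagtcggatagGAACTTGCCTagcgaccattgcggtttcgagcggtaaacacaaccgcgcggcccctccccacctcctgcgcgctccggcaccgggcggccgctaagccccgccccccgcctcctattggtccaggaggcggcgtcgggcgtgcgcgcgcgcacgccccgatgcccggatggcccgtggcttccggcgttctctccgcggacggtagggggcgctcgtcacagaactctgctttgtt
Ccng1: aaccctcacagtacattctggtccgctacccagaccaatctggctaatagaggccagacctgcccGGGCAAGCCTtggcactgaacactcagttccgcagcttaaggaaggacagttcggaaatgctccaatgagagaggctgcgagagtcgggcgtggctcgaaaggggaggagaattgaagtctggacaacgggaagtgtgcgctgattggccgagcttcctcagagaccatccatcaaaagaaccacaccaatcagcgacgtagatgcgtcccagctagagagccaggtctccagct
Bax: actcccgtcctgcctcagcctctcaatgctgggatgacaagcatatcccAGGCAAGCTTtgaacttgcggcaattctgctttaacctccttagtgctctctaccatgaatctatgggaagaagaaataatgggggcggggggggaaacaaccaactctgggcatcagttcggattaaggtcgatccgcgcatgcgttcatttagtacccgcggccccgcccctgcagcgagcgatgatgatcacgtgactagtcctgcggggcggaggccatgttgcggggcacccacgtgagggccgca
Aen: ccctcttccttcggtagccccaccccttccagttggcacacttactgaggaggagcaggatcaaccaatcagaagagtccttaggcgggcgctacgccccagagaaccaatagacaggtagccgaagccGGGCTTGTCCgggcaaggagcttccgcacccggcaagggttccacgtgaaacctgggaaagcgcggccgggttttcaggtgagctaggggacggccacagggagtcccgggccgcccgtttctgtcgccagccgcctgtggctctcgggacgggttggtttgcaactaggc
Btg2: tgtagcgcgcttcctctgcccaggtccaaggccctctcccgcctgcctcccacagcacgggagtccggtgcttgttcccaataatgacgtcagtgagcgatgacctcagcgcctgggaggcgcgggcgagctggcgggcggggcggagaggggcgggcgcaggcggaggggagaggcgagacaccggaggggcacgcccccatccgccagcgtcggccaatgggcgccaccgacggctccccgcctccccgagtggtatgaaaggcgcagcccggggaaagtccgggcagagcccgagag

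The half-site of Mdm2 began 186 bases before the start, that of Ccng1 185 bases before, that of Bax 201 bases before and that of Aen 121 bases before. Btg2, the gene with the largest difference from Normal liver among the 10, held no match in this window. Of the 7 genes with a promoter in the table, 5 held a match, the fifth being Polk, and Btg2 and Sesn2 held none. No promoter is given for Pmaip1, Trp53inp1 and Zmat3. A match was found in 66.7% of the 9 promoters of these genes and in 8.36% of all 32851 promoters searched. Overlapping windows of Aen hold the same half-site, which is counted in each. In the Aen window not shown it began at base 11 after the start. Polk held a match in only 1 of its promoters. By gene, the 5 of 7 stand beside 9.55% of all 27025 genes with a promoter. The other p53 targets listed below held it in 6 of 25 genes. The promoters of the 10 genes had a median GC content of 63.3% against 52.7% over all promoters. A match is a description of the letters in this window. Only exact matches were searched, so the absence of one says nothing of binding in this window or elsewhere.

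Values are given as centred log2 signal, that is the log2 processed signal after subtraction of the array's own 75th percentile, so that 0 is the level of a fairly bright probe and a difference of 1 is a doubling. Levels of different probes are not compared. Of all spots, 46.2% to 65.0% were well above background on an array. Correlations between arrays of a group ranged from 0.979 to 0.991. The 6 STAM arrays lay on 1 slide and the 3 Normal arrays on another, so slide and model cannot be told apart. All 10 hepatocyte markers were well above background on all 9 arrays. In whole liver, fewer cells of a type and less RNA per cell cannot be told apart.

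All 10 genes had a higher mean in STAM-NON than in Normal liver. The differences ran from 0.35 for Mdm2 to 2.28 for Btg2, with a median of 0.77 against -0.13 over all tested probes. In 8 of the 10 the 3 STAM-NON arrays lay above all 3 Normal arrays, which was also the case for 13.2% of the 26278 tested probes. Given only as a description, 5 of the 10 had a limma adjusted p under 0.05 as higher, Pmaip1 among them, and 0 as lower. Over all probes 6.3% passed as higher and 9.76% as lower. These shares stand beside the counts as background and nothing is read from them, since the genes were chosen on this difference.

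**Figure D1:**
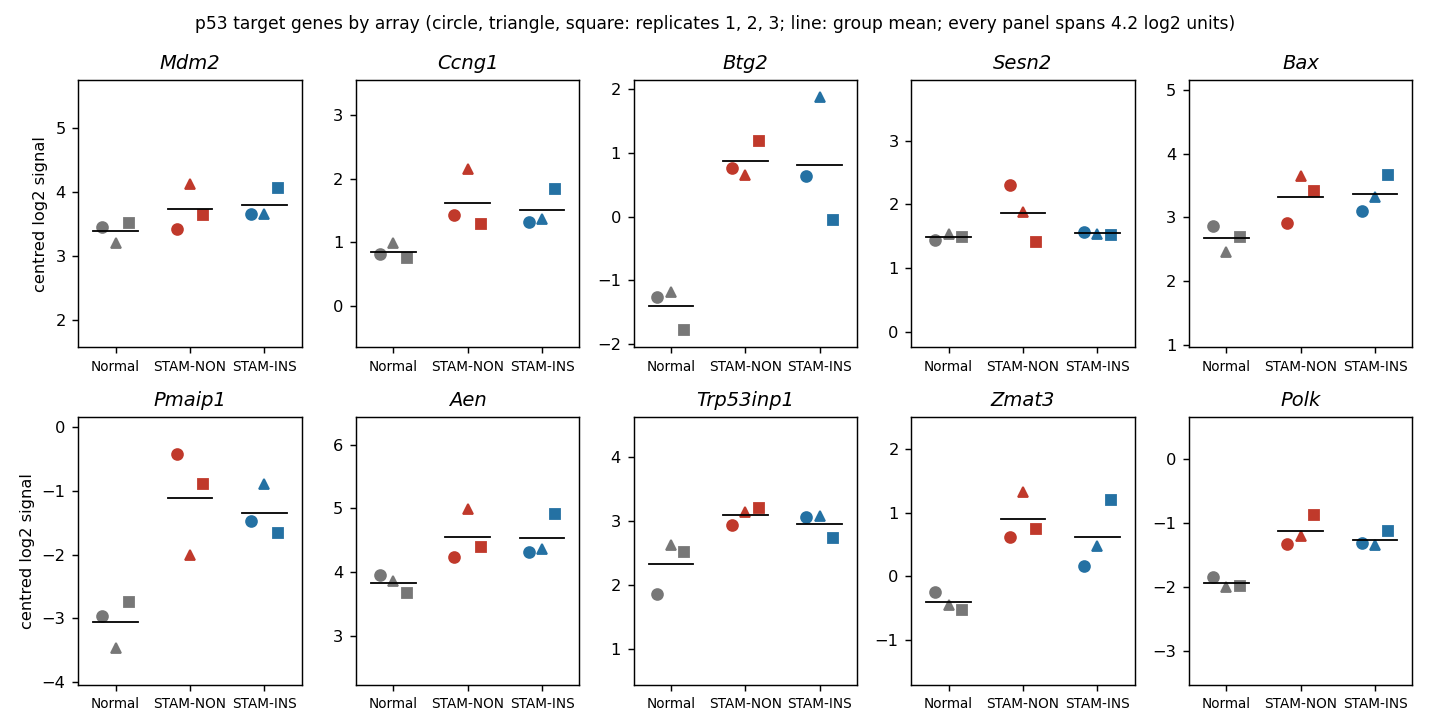
Centred log2 signal of the main probe of each of the 10 genes (vertical axis) on the 9 arrays, by group. Points are single mice, with circle, triangle and square for replicates 1, 2 and 3, and lines are group means. Every STAM point lies above every Normal point for Ccng1, Btg2, Bax, Pmaip1, Aen, Trp53inp1, Zmat3 and Polk, whereas groups overlap for Mdm2 in STAM-NON and for Sesn2.

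The feedback and cell cycle genes differed widely in size. Mdm2 encodes the ubiquitin ligase that marks p53 for degradation. Its centred log2 signal was 3.43, 4.13 and 3.65 in STAM-NON replicates 1 to 3, 3.66, 3.67 and 4.07 in STAM-INS, and 3.45, 3.20 and 3.52 in Normal. STAM-NON replicate 1 lay below Normal replicates 1 and 3, so these groups overlapped, whereas all STAM-INS arrays lay above Normal. The mean of STAM-NON exceeded that of Normal by 0.35 (SE 0.20), a 1.27-fold difference, and by 0.15 without STAM-NON replicate 2. STAM-INS exceeded Normal by 0.41.

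Ccng1 encodes cyclin G1, which recruits a phosphatase to Mdm2. Its signal was 1.43, 2.16 and 1.29 in STAM-NON, 1.33, 1.36 and 1.84 in STAM-INS, and 0.81, 0.99 and 0.75 in Normal. All 6 STAM arrays were above all 3 Normal arrays, and the highest in each STAM group stood clear of the other two. The difference was 0.77 (SE 0.24) in STAM-NON, or 1.71-fold, and 0.66 in STAM-INS. Without STAM-NON replicate 2 the former was 0.51.

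Btg2 encodes an antiproliferative protein that promotes the shortening of poly(A) tails. It was measured at 0.76, 0.65 and 1.19 in STAM-NON, at 0.63, 1.88 and -0.06 in STAM-INS, and at -1.26, -1.19 and -1.78 in Normal. The lowest STAM array, STAM-INS replicate 3, still lay above the highest Normal array. The STAM-INS arrays were far more scattered (SD 0.98, n = 3) than those of STAM-NON (SD 0.28, n = 3). The mean was 2.28 (SE 0.44) higher in STAM-NON than in Normal, which is 4.85-fold, and 2.22 higher in STAM-INS.

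Sesn2 encodes sestrin 2, a leucine sensor that restrains mTORC1 and supports antioxidant defence. Its signal was 2.30, 1.88 and 1.41 in STAM-NON, 1.57, 1.54 and 1.52 in STAM-INS, and 1.44, 1.54 and 1.49 in Normal. STAM-NON replicates 1 and 2 lay above every other array, and replicate 3 lay below every Normal array. The STAM-NON mean was 0.37 (SE 0.20) above Normal, 1.30-fold, 0.15 without STAM-NON replicate 1 and 0.60 without STAM-NON replicate 3. The STAM-INS mean was 0.06 above Normal, and -0.12 from it when arrays were centred on their median.

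Among the genes of cell death, the difference was largest for Pmaip1 and smallest for Bax. Bax encodes the protein that opens the outer membrane of mitochondria. Its signal was 2.91, 3.65 and 3.41 in STAM-NON, 3.10, 3.32 and 3.67 in STAM-INS, and 2.87, 2.45 and 2.69 in Normal. No STAM array overlapped with Normal, although STAM-NON replicate 1 was only slightly above the highest Normal array. The difference was 0.65 (SE 0.22), or 1.57-fold, in STAM-NON and 0.69 in STAM-INS.

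Pmaip1 encodes Noxa, a protein with only a BH3 domain that binds Mcl1. Its probe was well above background on 2 of the 3 Normal arrays, so it passed the filter only through the STAM groups, where it was higher. Signals were -0.41, -2.00 and -0.89 in STAM-NON, -1.48, -0.89 and -1.66 in STAM-INS, and -2.96, -3.47 and -2.75 in Normal. The STAM-INS arrays lay within the span of the STAM-NON arrays, and all 6 lay above Normal. STAM-NON exceeded Normal by 1.95 (SE 0.40), which is 3.88-fold, and STAM-INS by 1.71. With the other background correction (normexp) the former was 0.87 and the latter 0.73.

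Aen encodes a nuclease of apoptotic cells. The main probe gave 4.24, 4.99 and 4.40 in STAM-NON, 4.31, 4.37 and 4.92 in STAM-INS, and 3.96, 3.86 and 3.67 in Normal. The STAM arrays were all above the Normal arrays. The difference was 0.72 (SE 0.23), 1.64-fold, in STAM-NON and 0.71 in STAM-INS. The other Aen probe gave 0.78 and 0.82 and passed the threshold in both, whereas the main probe did not.

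Trp53inp1 encodes a stress protein that enhances p53 activity and takes part in autophagy. Its main probe read 2.94, 3.14 and 3.21 in STAM-NON, 3.06, 3.08 and 2.73 in STAM-INS, and 1.85, 2.63 and 2.52 in Normal. Normal replicate 1 was well below the other two, and the STAM arrays were above all 3. The difference was 0.76 (SE 0.21), 1.70-fold, in STAM-NON and 0.63 in STAM-INS, and without Normal replicate 1 it was 0.52 and 0.39. Its other probe gave 0.64 and 0.46, with an overlap between STAM-INS and Normal. That probe did not pass the threshold in either comparison, whereas the main probe passed in STAM-NON only.

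Zmat3 encodes a zinc-finger RNA-binding protein that alters splicing and mRNA stability. The signal was 0.62, 1.33 and 0.74 in STAM-NON, 0.17, 0.47 and 1.20 in STAM-INS, and -0.24, -0.45 and -0.53 in Normal. All STAM arrays exceeded all Normal arrays. The STAM-NON mean was 1.30 (SE 0.28) higher than Normal, which is 2.47-fold, and the STAM-INS mean 1.02 higher.

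Polk encodes a DNA polymerase that copies across damaged bases. Its main probe read -1.32, -1.20 and -0.88 in STAM-NON, -1.31, -1.35 and -1.12 in STAM-INS, and -1.85, -2.00 and -1.99 in Normal. Both STAM groups lay above Normal and overlapped with each other, and in each group only 1 other gene of the 10 had a smaller SD. The difference was 0.81 (SE 0.14), or 1.76-fold, in STAM-NON and 0.69 in STAM-INS, and with normexp it was 0.51 and 0.37. The other Polk probe was well above background on 0 of 3 Normal arrays, and it also passed the filter only through the STAM groups. With the lowest detected signal in place of Normal, its measured means differed by at least 1.61-fold in STAM-NON and 1.46-fold in STAM-INS. These bounds leave out the spread of the arrays. This probe read -3.65, -2.16 and -3.79 in STAM-NON and did not pass the threshold in either comparison, whereas the main probe did.

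The counts past the threshold describe genes that were chosen on these differences and are no evidence for them. In STAM-NON against Normal they were made up of Zmat3, Trp53inp1, Btg2, Pmaip1 and Polk. In STAM-INS against Normal they were made up of Zmat3, Btg2, Pmaip1 and Polk, 4 of 10 as higher and 0 as lower, with 5.16% of all tested probes higher and 8.72% lower. There, 9 of the 10 did not overlap with Normal and lay above it, beside 15.1% of all probes, and the median difference was 0.69 against -0.09. Both comparisons use the same Normal arrays. The count in STAM-NON was 3 without STAM-NON replicate 1, 2 without STAM-NON replicate 3, 1 without Normal replicate 1, 2 without Normal replicate 2 and 0 without Normal replicate 3. In STAM-INS it was 1 without STAM-INS replicate 2 or 3, 2 without Normal replicate 1, 1 without Normal replicate 2 and 0 without Normal replicate 3.

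Insulin treatment was the comparison that addressed whether these genes differ between treated and non-treated STAM livers. The 10 genes did not pass the test in it. By limma, 0 of the 10 had an adjusted p under 0.05, and 0 had an unadjusted p under 0.05. The share of all tested probes with an adjusted p under 0.05 was 0.0913%. In 0 of the 10 did the 3 STAM-INS arrays lie apart from the 3 STAM-NON arrays, beside 12.2% of all probes in either direction. With 10 genes this count is close to that share, and nothing is read from it. The median difference was -0.12 against 0.03 over all tested probes. The STAM-NON arrays also entered the difference the genes were chosen on. A choice of genes high in STAM-NON can by itself pull this comparison below 0, so its signs and median are a description.

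The differences under insulin ran from -0.32 for Sesn2 to 0.06 for Mdm2, and 8 of 10 were below 0. Signs and sizes depended on single arrays. With each STAM array left out in turn, Sesn2, Zmat3, Trp53inp1 and Polk stayed below 0 and the other 6 genes changed sign at least once. Without STAM-NON replicate 2, Mdm2, Ccng1 and Aen were at 0.26, 0.15 and 0.22. Sesn2 was at -0.10 without STAM-NON replicate 1, and Zmat3 at -0.06 without STAM-INS replicate 1. For Sesn2 the 95% interval was -0.78 to 0.14, with an adjusted p by limma of 0.686, the lowest among the 10. STAM-INS replicates 1 to 3 of Sesn2 lay within the span of the STAM-NON arrays. For Zmat3 the difference was -0.28 with an interval of -0.92 to 0.36, and for Pmaip1 it was -0.24 with an interval of -1.16 to 0.68. Btg2 had a difference of -0.05 and the widest interval of the 10, from -1.05 to 0.94. The narrowest belonged to Polk, from -0.45 to 0.19 around -0.13. For Mdm2, Ccng1, Bax, Aen and Trp53inp1 the differences were 0.06, -0.11, 0.04, -0.01 and -0.14. Their intervals reached from -0.66 at the lowest, for Ccng1, to 0.55 at the highest, for Bax. A p over the threshold does not show that treated and non-treated livers had equal levels, and for Btg2 the interval includes a halving.

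**Figure D2:**
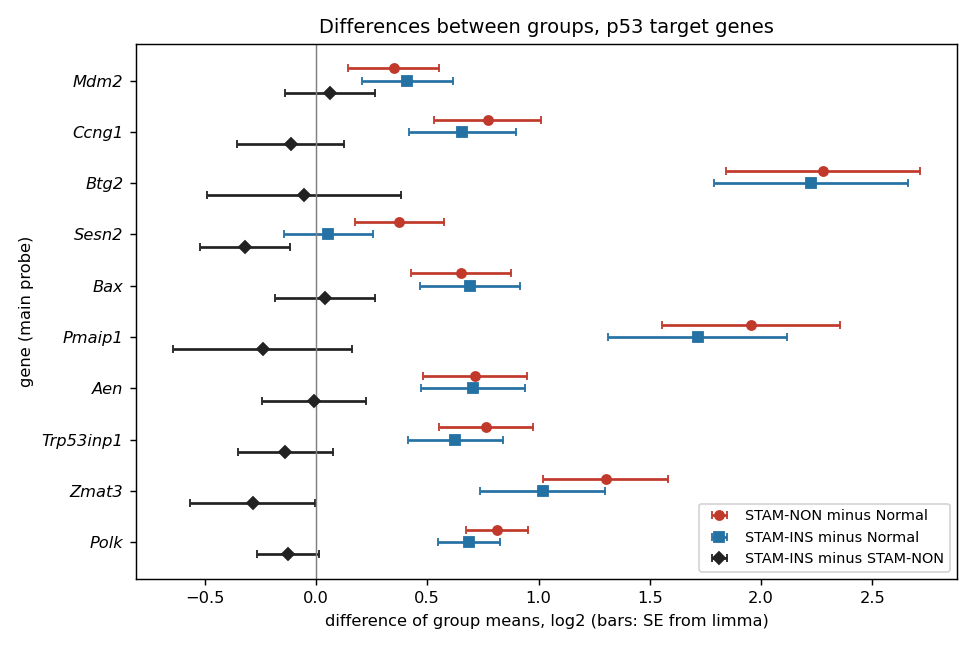
Differences of group means (horizontal axis, log2) for the main probe of each gene, with bars of 1 SE from limma. The differences of STAM-NON and STAM-INS from Normal (circles and squares) are above 0 for all 10 genes, from 0.06 for Sesn2 in STAM-INS to 2.28 for Btg2 in STAM-NON, whereas those between the STAM groups (diamonds) lie between -0.32 and 0.06.

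Within each STAM group, 5 of the genes shared their highest array. Mdm2, Ccng1, Bax, Zmat3 and Aen were each highest on STAM-NON replicate 2 among STAM-NON and on STAM-INS replicate 3 among STAM-INS. This pattern was picked out after the values were seen, and arrays of a group have no order. The 5 genes exceeded their group's mean by 0.33 to 0.53 on the former array and by 0.27 to 0.59 on the latter. Being highest on both was common, at 23.6% of all tested probes, and an excess of at least 0.25 on both was found for 4% of them. That cutoff lies just below the smallest excess of the 5 genes, 0.27, so their passing it was given by the choice. Over all tested probes, the deviations of these arrays from their group means correlated at 0.27. The second Aen probe, at 4.77 and 4.79 on these arrays, was also highest there within each group.

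The other 5 genes departed from this pattern. Pmaip1 was lowest on STAM-NON replicate 2, 0.90 below its group mean, and highest on STAM-NON replicate 1. Btg2 was highest on STAM-INS replicate 2, 1.06 above its group mean, and lowest on STAM-INS replicate 3. Sesn2 was highest on STAM-NON replicate 1. Trp53inp1 was lowest on STAM-INS replicate 3, and Polk was highest on STAM-NON replicate 3. Among the other p53 targets, Gdf15, Phlda3, Plk2, Tigar and Psrc1 also exceeded their group mean by at least 0.25 on both arrays, 5 of 25 tested. In the lists of p53 regulators, relatives of the 10 genes, Atf4 targets and immediate-early genes, 0 genes did so. In the marker lists Cyp2e1 of 10 hepatocyte markers and Hba-a1 of 4 erythroid markers did. Over all tested probes the share was 4%, and nothing is read from these counts.

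Other measures moved with these arrays. Of 14 tested cell division genes, 0 were highest on either array. Their mean, relative to Normal, was 0.46 on STAM-NON replicate 2 against 2.20 and 2.12 on replicates 1 and 3, and 1.05 on STAM-INS replicate 3 against 1.59 and 3.21 on replicates 1 and 2. Hepatocyte markers were highest on STAM-NON replicate 2 for 8 of 10 genes and on STAM-INS replicate 3 for 5 of 10. They were highest on both for 5 of 10, the same count as among the p53 targets. The share of spots well above background was 47.8% on the former, against 59.3% and 63.1% in its group, and 49.8% on the latter, against 65.0% and 47.8%. The part of these measures in the pattern of the 5 genes was not tested.

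**Figure D3:**
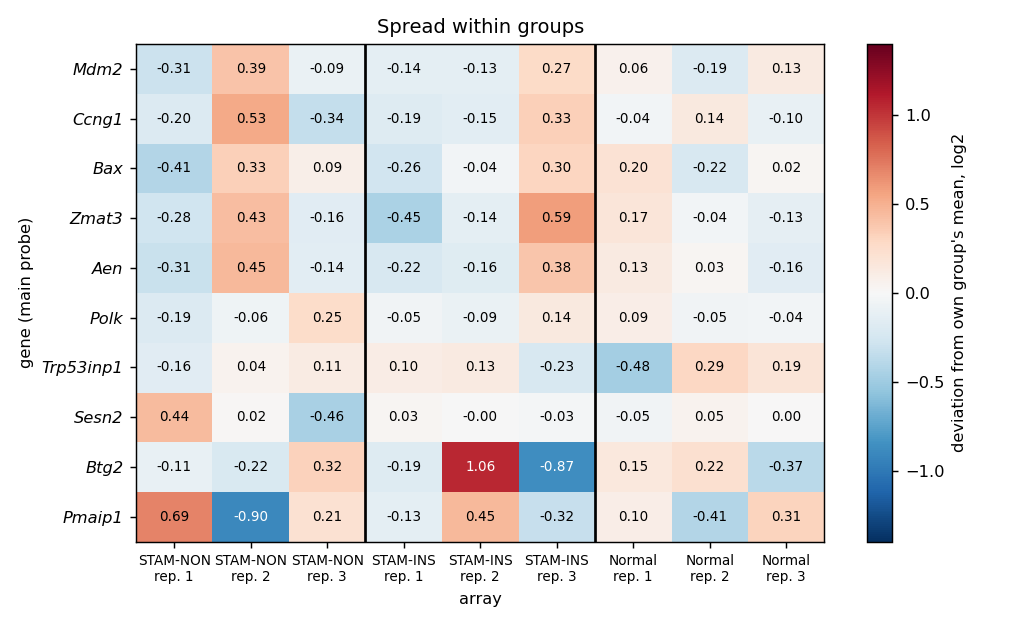
Deviation of each array from the mean of its own group (colour and number, log2), for the main probes of the 10 genes in rows and the 9 arrays in columns. The upper 5 rows are above their mean on STAM-NON replicate 2 (0.33 to 0.53) and STAM-INS replicate 3 (0.27 to 0.59), and Btg2 and Pmaip1 lie below it on both.

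The wider p53 response was read from a list of 30 other targets, of which 25 could be tested. In STAM-NON against Normal 5 rose and 1 fell by limma, beside 6.3% of all tested probes higher and 9.76% lower. The median was -0.02 against -0.13 over all tested probes, with 11 of 25 above 0 and 14 below. Cdkn1a, which encodes the cell cycle inhibitor p21, rose by 4.99 (SE 0.35, adjusted p = 0.00127). Its signal was 1.24, 1.55 and 1.99 in STAM-NON and -3.33, -3.33 and -3.54 in Normal. Phlda3, an inhibitor of Akt, rose by 3.30 (SE 0.27, adjusted p = 0.00186). Tnfrsf10b, a death receptor for Trail, rose by 2.60 (SE 0.21) and Psrc1, a microtubule protein of the spindle, by 3.10 (SE 0.65). Each was well above background on 1 of 3 Normal arrays, so both passed the filter only through the STAM groups. Ckap2, another spindle protein, was well above background on 0 of 3 Normal arrays, which puts its difference at 1.38-fold or more. It too passed the filter only through the STAM groups. Dcxr, a reductase of xylulose, fell by 0.94 (SE 0.24).

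The remaining 19 tested targets did not pass. Among them were several often used as p53 readouts. Bbc3, which encodes Puma, differed by 0.44 (SE 0.25), Gdf15 by 0.35 (SE 0.46), Gadd45a by 0.14 (SE 0.44), Fas by -0.10 (SE 0.22) and Ppm1d by -0.31 (SE 0.19). In STAM-INS against Normal, the targets past the threshold were Cdkn1a, Tnfrsf10b, Phlda3, Psrc1, Ckap2 and Dcxr, which also passed in STAM-NON. Over all tested probes 5.16% were higher and 8.72% lower there. Cdkn1a was there 5.31 (SE 0.35) higher and Phlda3 2.78 (SE 0.27) higher. Under insulin 0 of 25 passed by limma, and 2 had an unadjusted p under 0.05, namely Ei24 at 0.30 and Ercc5 at 0.21. The difference of Cdkn1a was 0.31 (SE 0.35) by its main probe and -0.85 (SE 0.39) by the other, so the probes differed in sign.

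The mRNA of p53 itself was not past the threshold, and the arrays do not read its protein. Trp53 read -1.97, -2.17 and -2.02 in STAM-NON, -1.82, -2.12 and -2.14 in STAM-INS, and -2.41, -1.38 and -2.13 in Normal. All STAM arrays lay within the Normal range, which was wide (SD 0.54, n = 3). The difference was -0.08 (SE 0.25) in STAM-NON and -0.05 in STAM-INS. Mdm4, the partner of Mdm2 that blocks p53, differed by 0.04 (SE 0.18) and -0.30 (SE 0.18). Over all tested probes, 6.3% were higher and 9.76% lower in STAM-NON. Of 13 tested genes for p53 and its regulators, 1 rose and 0 fell. That gene was Cdkn2a, whose locus encodes the cyclin kinase inhibitor p16 and the Mdm2 inhibitor Arf. Its main probe read -0.48, -1.19 and -0.58 in STAM-NON and -0.87, -1.37 and -1.10 in STAM-INS. That probe was well above background on 0 of 3 Normal arrays, so it passed the filter only through the STAM groups. The difference was at least 8.77-fold in STAM-NON and at least 6.82-fold in STAM-INS, given as a description. Its other probe was well above background on 0 arrays of each group and was not tested. Which of the products its main probe reads was not tested.

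**Figure D4:**
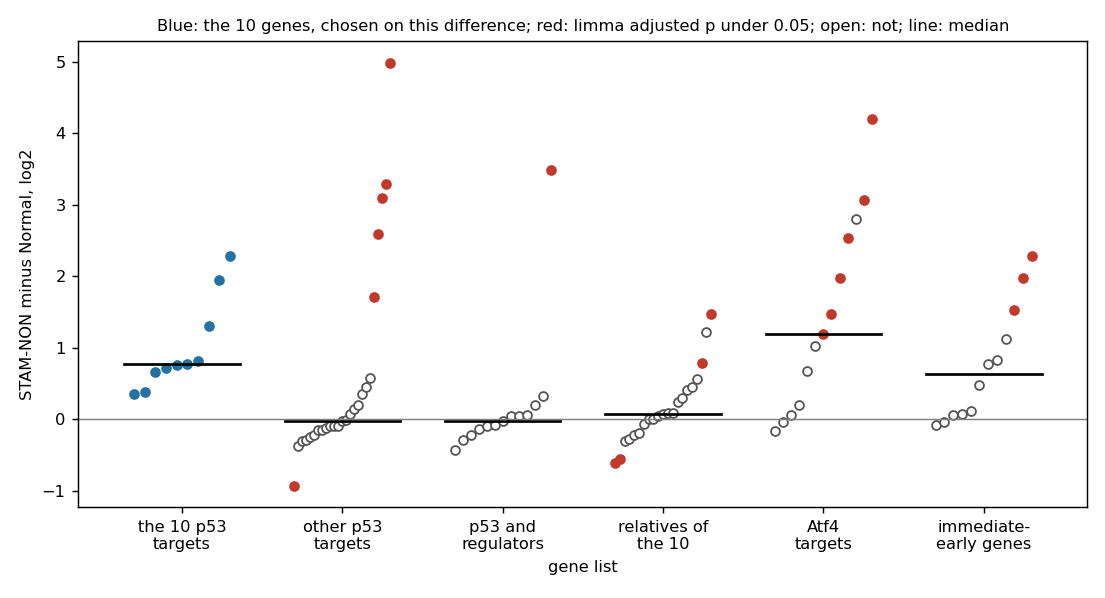
Difference between STAM-NON and Normal (vertical axis, log2) for each tested gene of 6 lists, with the list median as a line. Blue points are the 10 genes, which were chosen on this difference and are not marked by threshold. In the other lists, red points passed an adjusted p of 0.05 by limma and open points did not. The 10 genes lie from 0.35 to 2.28, and the other p53 targets from -0.94 for Dcxr to 4.99 for Cdkn1a.

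Relatives of the 10 genes were read beside them. The 10 were chosen on the difference between STAM-NON and Normal, so a contrast with their relatives in it was not tested. Of 21 tested relatives, 2 rose and 2 fell in STAM-NON against Normal, with a median of 0.07. Over all tested probes 6.3% were higher and 9.76% lower. Isg20, a nuclease related to Aen, rose by 1.47 (SE 0.38). Bcl2, which restrains Bax, rose by 0.78 (SE 0.22), whereas Bid, which activates Bax, fell by 0.56 (SE 0.12). Poli, a polymerase of the same family as Polk, fell by 0.61 (SE 0.15). For Ccng2 the difference was 0.57 (SE 0.24), for Sesn1 0.07 (SE 0.11), for Btg1 0.25 (SE 0.15), for Btg3 1.23 (SE 0.40) and for Trp53inp2 -0.00 (SE 0.18), none of them past the threshold. In STAM-INS against Normal, Isg20 rose by 1.82 (SE 0.38), and Mcl1 (-0.54), Bid (-0.50) and Rev1 (-0.54) fell. Over all tested probes 5.16% were higher and 8.72% lower there.

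Genes that share other inducers with the 10 were read for comparison. Of 13 tested Atf4 targets, 6 rose and 0 fell in STAM-NON, with a median of 1.19. Over all tested probes 6.3% were higher and 9.76% lower in STAM-NON, and 5.16% and 8.72% in STAM-INS. Fgf21 rose by 3.07 (SE 0.51), the asparagine synthetase gene Asns by 2.54 (SE 0.35) and Atf3 by 1.98 (SE 0.42). Ddit3 and Atf5 rose by 1.47 and 1.19, and Psat1 was at least 13.9-fold higher. Atf4 itself differed by -0.03 (SE 0.11). In STAM-INS 5 of 13 rose and the median was 0.91. Of 12 immediate-early genes, 3 rose in STAM-NON, which were Fos, Ier3 (1.53, SE 0.30) and Atf3, and 2 rose in STAM-INS, which were Ier3 and Atf3. Their part in the values of Sesn2, Pmaip1 and Btg2 was not tested.

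Some markers of other cells also differed between STAM-NON and Normal. In STAM-NON against Normal, 2 of 9 tested macrophage markers rose (Cd14 and Clec4f), as did 2 of 10 stellate cell and fibroblast markers (Lum and Timp1), 3 of 7 cholangiocyte markers (Krt7, Sox9 and Spp1), 1 of 5 lymphocyte markers (Ptprc), 1 of 8 endothelial markers (Lyve1) and 0 of 4 erythroid markers. Below 0 were 3 of 5 lymphocyte and 3 of 8 endothelial markers. Over all tested probes 6.3% were higher and 9.76% lower. In STAM-INS the counts that rose, in the same order of lists, were 2, 1, 1, 1, 0 and 0, beside 5.16% of all tested probes. Of 10 hepatocyte markers, Cps1 fell by 0.67 (SE 0.16) in STAM-NON. The summed linear signal of the macrophage markers, relative to the 75th percentile, ranged from 117 to 223 in STAM-NON, 104 to 249 in STAM-INS and 63.0 to 98.6 in Normal. That of the stellate cell and fibroblast markers ranged from 90.5 to 149.7, from 70.7 to 89.1 and from 73.9 to 84.0. That of the cholangiocyte markers ranged from 4.85 to 11.6, 4.66 to 7.16 and 2.46 to 4.28, and that of the hepatocyte markers from 4313 to 5372, 4809 to 5338 and 5974 to 6347. For the lymphocyte markers the sum ranged from 24.7 to 45.5, 29.9 to 45.1 and 40.3 to 42.5. For the endothelial markers it ranged from 62.3 to 86.4, 41.1 to 79.7 and 71.8 to 79.3. Both lists overlapped with Normal in both STAM groups, as did the erythroid markers. The stellate cell and fibroblast markers overlapped with Normal in STAM-INS. The probe of Timp1 was well above background on 0 of 3 Normal arrays, so it passed the filter only through the STAM groups. The part of these cells in the values of the 10 genes was not tested.

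Of the cell division genes, Ccnb1 and Aurka rose in STAM-NON, 2 of 14 tested, beside 6.3% of all tested probes. In STAM-INS 5 rose, beside 5.16% of all tested probes, and these were Ccnb1, Plk1, Aurka, Cdc20 and Prc1. All 14 lay above 0 in both comparisons with Normal, with medians of 1.55 and 2.03.

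The profile of Btg2, the gene of the 10 with the largest difference between STAM-NON and Normal, was compared with that of 13385 other tested genes over the 9 arrays. Likeness was the root mean square difference of the profiles, each taken from its own mean. The nearest were Dusp8 (0.32), Ifi27l2b (0.34), Sirpb1b (0.37), Spdef (0.37) and Oip5 (0.37). Their differences between STAM-NON and Normal were 2.29, 2.57, 2.41, 1.49 and 2.22. Among the other 9 genes, Pmaip1 was nearest to Btg2, at rank 110 (0.58), and the rest followed from Zmat3 at rank 1095 (0.88) to Sesn2 at rank 3503 (1.13). The profiles were not scaled, so this distance also follows the size of the difference the genes were chosen on. The ranks are a description.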

How the data were processed

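Liver RNA of 9 mice was labelled with Cy3 and hybridised to Agilent mouse arrays by Takara Bio on behalf of the authors. The deposited files hold scanner output of Agilent Feature Extraction 11.5.1.1, namely background-subtracted linear spot intensity, the median intensity of spots and of their background, and flags, with no normalisation between arrays. The study's methods name no normalisation or test for these arrays. The labels and the methods name different RNA extraction kits.

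Control spots and outlier-flagged spots were left out and spots of a probe averaged. log2 signal was centred on the 75th percentile of each array. Accessions were matched, without versions, to a RefSeq table (GRCm38.p6), which named 27656 of 55681 probes. The array's own design uses mm9, so gene coordinates were given only for promoters of that table. Probes were tested if detected on all arrays of at least 1 group (26278 probes, with 13 left out for missing spots), where detected means that a share of at least 0.5 of the probe's spots was flagged well above background, and a gene was represented by its probe with the highest mean. limma 3.58.1 under R 4.3.3 (two-sided moderated tests, 3 groups in 1 fit with 6 residual degrees of freedom) gave differences, SE and Benjamini-Hochberg adjusted p over all tested probes, with a threshold of 0.05. The scripts were tested on simulated data. Exact tests of 3 against 3 arrays cannot go below p = 0.1 and were not used. Precision was limited by 3 arrays per group.

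Where no array of a group had a probe well above background, only a bound was given, with the lowest detected signal of each array in place of the dim probe. Such a bound holds for the measured group means and does not include the spread of the arrays. The genes, the other lists and the tests were chosen with earlier results of these data known. Named were all 10 genes, up to 6 genes past the threshold per list, Trp53, Mdm4, Cdkn1a, relatives of the genes and the 5 nearest profiles to the gene with the largest difference. Bbc3, Gdf15, Plk2, Tigar, Gadd45a, Fas, Ppm1d, Ei24, Ercc5 and Atf4 were named after their values were seen. Replicate numbers did not pair the mice. Alternatives were other centrings, quantile normalisation, normexp on median signals (mean signals not used here), filters, outlier spots kept, probes averaged, eBayes settings, blocks, thresholds and leaving out arrays.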

Additional observations from a re-analysis of the deposited data

How the results depend on the processing

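In STAM-NON against Normal, the difference of each of the 10 genes stayed above 0 under all 20 alternatives (19 for Pmaip1), and 5 passed the threshold. The count was 8 when the percentile came from detected probes alone, 8 with quantile normalisation, 9 with centring on the E1A spike-ins, 8 with normexp, 8 at an unadjusted p under 0.05 and 3 when a 2-fold difference was also asked for. It was 0 without the filter on dim probes, 0 with the slide row as a block, and 0 without the 3 arrays with most spots above background, an alternative chosen after seeing the data that leaves 1 STAM-NON array. Only STAM-INS arrays lay in both slide rows, so that block rests on them. Leaving out 1 array gave 0 to 4. With the slide row as a block the differences of Mdm2, Bax and Zmat3 were 0.55, 1.05 and 1.97, and without the 3 arrays those of Mdm2, Ccng1, Bax, Aen and Pmaip1 were 0.74, 1.30, 0.98, 1.17 and 1.06. Centring on the median gave 0.20 for Mdm2 and 0.22 for Sesn2, and the E1A spike-ins 0.66 and 0.69.

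In STAM-INS against Normal, 4 genes passed. The count was 7 with the percentile over detected probes, 7 with the E1A spike-ins, 7 with only these 2 groups in the fit, 8 at an unadjusted p under 0.05, 2 with centring on the median and 0 without the filter. Leaving out 1 array gave 0 to 3. In STAM-INS against STAM-NON the count of the 10 was 0 under every alternative run, including each array left out (0 to 0).

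Of the other p53 targets, 6 passed in each comparison with Normal. In STAM-NON the count was 3 without the filter, 3 among probes well above background on all arrays, 2 with the slide row as a block and 3 without the 3 arrays, and 3 to 6 with 1 array left out. In STAM-INS it was 3 without the filter, 3 with detection on all arrays and 3 to 5 with 1 array left out. Under insulin it was 2 at an unadjusted p under 0.05 and 0 to 0 with 1 array left out. The causes of these shifts were not tested.

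Same-numbered arrays of different groups had correlated deviations of -0.29 to 0.15, so the numbers share only a name. With the replicate block, 4 of the 10 passed in STAM-NON, 0 under insulin and 2 in STAM-INS against Normal.

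The scaling moved the median of all tested probes in STAM-NON against Normal from -0.13 to 0.04 (percentile over detected probes), -0.29 (median), -0.04 (quantile) and 0.18 (E1A). Slide as a block could not be run, since each slide held either STAM or Normal arrays.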
